A study of Mus musculus with 4 samples.

Results

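Dst, Macf1 and Plec encode giant cytolinkers, proteins of the plakin family that tie the filament systems of the cell to each other and to its adhesion sites. Dystonin (Dst) and the microtubule-actin crosslinking factor (Macf1) are spectraplakins, which bind actin at one end and microtubules at the other, and plectin (Plec) anchors intermediate filaments to actin and to cell junctions. All of them are transcribed from long genes with many exons and alternative first exons, and their splice forms differ between tissues. SRSF1 and SRSF2 belong to the SR protein family, which binds pre-mRNA, often in exons, and influences which exons are kept.

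The 3 genes carried 591 of the 107319 listed peaks (0.551%), 233 of SRSF1 and 358 of SRSF2. They were chosen on the peak numbers and SRSF1 shares of these same lists, so those values are given as descriptions and no test was made on them. Members are the peaks on the gene's strand inside fixed mm9 intervals, chr1:33965000-34366000 (plus strand, Dst), chr4:123026000-123362000 (minus strand, Macf1) and chr15:76001000-76063500 (minus strand, Plec). The data are CLIP-seq peak lists, in which ultraviolet crosslinking and immunoprecipitation mark RNA stretches bound by a protein. The SRSF1 list came from SRSF1 tet-repressible mouse embryonic fibroblasts (MEFs) and the SRSF2 list from SRSF2 tet-repressible MEFs. Both lines were grown in serum-containing medium without tetracycline, and both proteins were precipitated with an antibody against the HA tag. Each protein was represented by 1 library from its own line, so protein and line cannot be told apart and the values have no replicate check. Libraries of siRNA-treated SRSF1 cells were not analysed here.

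The lists hold 50983 SRSF1 peaks and 56336 SRSF2 peaks, with a median width of 19 nt and a median score of 8 in each. Read depth is unknown, and the score is the authors' own value per peak, whose meaning the sources used here do not state. Peak lists hold no expression values, so the fibroblast label could not be set against marker genes, and the part that RNA level takes in a gene's number of peaks was not tested.

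The intervals were set as these genes, and their positions were set against the reference by size and neighbours only. The authors' host units in these intervals are numbered clusters without a symbol, 1 unit per gene and the same unit in both lists. The intervals span 401 kb, 336 kb and 62.5 kb for Dst, Macf1 and Plec, where the RefSeq genes of assembly GRCm38.p6 are 400.8, 338 and 60.4 kb long. The nearest units with a RefSeq name on either side were Gm15455 and Cox5b for Dst, Ppie and Akirin1 for Macf1, and Gsdmd and Grina for Plec, and all 6 lie on that side of the gene in the RefSeq order as well. Between each gene and these neighbours RefSeq has 0 and 23 other coding genes for Dst, 6 and 1 for Macf1 and 17 and 1 for Plec, so the order is a coarse check. Opposite-strand peaks were nearly absent, with 0 of either protein in the Dst and Plec intervals and 1 of each in that of Macf1.

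Outside the intervals the closest peaks on the same strand were few. An SRSF1 peak of score 4 lay 79 nt before the Dst interval, in another unit. The unit that holds Plec went on past the 5′ edge of the Plec interval. It had 8 SRSF1 peaks (scores 14 to 34) and 3 SRSF2 peaks (scores 18 to 24) there, between 76070843 and 76072979. The nearest of them lay 7343 nt away for SRSF1 and 8640 nt for SRSF2. The interval is already longer than the RefSeq gene, and RefSeq has 1 other coding gene between Plec and Grina on that side. Whether these outside peaks belong to Plec or to another gene is not known. Inside the interval the peaks nearest to its 5′ edge were at 38.7 kb (SRSF1) and 38.3 kb (SRSF2) from that edge. No other peak of the Dst or Macf1 units lay outside.

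Long exons made up more of the Plec transcript than of those of Macf1 and Dst. In the annotated transcript with the longest coding sequence (GENCODE M21, GRCm38), Plec-205 had 33 exons and 15455 nt, of which 69.8% lay in 2 exons of more than 1000 nt, the last one of 7412 nt and exon 32 of 3381 nt. Plectin's exon 32 encodes the coiled-coil rod and the last exon the C-terminal repeats. Macf1-203 had 98 exons and 23495 nt, with 35.4% in exons of more than 1000 nt, the longest being exon 36 with 5331 nt. Dst-211 had 103 exons and 23201 nt, with 29.2% in such exons, the longest being exon 39 with 5292 nt. The median exon was 126 nt in Plec and 155 nt in both spectraplakins. These lengths describe the transcripts only. The annotation is of another build than the peaks, so no peak was placed in an exon, an intron or an untranslated region.

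Of 2 purine-rich words of the kind that SRSF1 is known to bind, GGAGA was above the median gene in all 3 coding sequences and GAAGAA in Macf1 and Dst but not in Plec. On the transcript strand GGAGA occurred 3.77 times per kb in Plec, 3.40 in Macf1 and 3.20 in Dst, above 78.9%, 73.9% and 70.0% of 21049 protein-coding genes (median 2.29). GAAGAA occurred 0.853, 1.22 and 1.34 times per kb, above 48.8%, 61.4% and 64.5% of genes (median 0.891). The words of the form GGNG and CCNG, which SRSF2 is known to bind, separated Plec from the spectraplakins. Plec had 33.7 and 29.3 per kb, above 93.3% and 75.6% of genes, while Macf1 had 14.4 and 16.5 per kb and Dst 17.8 and 18.7 per kb, all 4 of them below the medians of 18.4 for GGNG and 21.7 for CCNG. The stretch of 100 nt with most GGAGA or GAAGAA matches in each coding sequence is shown, to let the kind of sequence be seen. Capitals mark these matches, which may overlap one another, and both words were searched on the transcript strand alone.
Plec-205, exon 32: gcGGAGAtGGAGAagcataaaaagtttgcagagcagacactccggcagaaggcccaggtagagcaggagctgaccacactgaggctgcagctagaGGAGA
Macf1-203, exons 10 and 11: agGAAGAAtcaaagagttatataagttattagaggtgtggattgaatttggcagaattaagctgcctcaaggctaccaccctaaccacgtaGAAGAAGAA
Dst-211, exon 47: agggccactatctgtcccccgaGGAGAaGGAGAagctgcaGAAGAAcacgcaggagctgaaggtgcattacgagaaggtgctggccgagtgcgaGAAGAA
Of 343379 coding stretches of 100 nt over all these genes, 29.2% hold at least 1 match. Those stretches follow one another, while each one shown is the best of all positions in a long coding sequence. The percentage therefore does not tell how unusual the shown stretches are. The sequences are from GENCODE transcripts. Whether a peak lies on them is not known, and no motif was searched under the peaks.

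Dst had the most peaks of any of the 8738 genic host units, with 134 SRSF1 and 214 SRSF2 peaks, or 0.334 and 0.534 per kb of the interval. Macf1 ranked 12th with 71 and 101 peaks (0.211 and 0.301 per kb), and the unit that holds Plec ranked 80th with 82 peaks, of which 28 SRSF1 and 43 SRSF2 peaks lay in the interval (0.448 and 0.688 per kb). Over the span from first to last peak the densities were 0.367 (SRSF1) and 0.522 (SRSF2) per kb in Macf1 and 1.26 and 1.94 per kb in Plec. By density they stood in the upper 50% of large units. The ranking took 293 units with at least 50 peaks by peaks per kb of the unit's own span. Dst, Macf1 and the whole unit that holds Plec took places 115, 140 and 93. For comparison, the units with most peaks after Dst lay at chr12:76979327-77211808 (127 SRSF1 and 145 SRSF2 peaks), chr15:77591040-77672540 (107 and 114), chr10:126975743-127058008 (98 and 116) and chr10:12122694-12588836 (100 and 108).

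The 5′ portion of each interval was bare or almost bare of peaks of both proteins. In Dst the first SRSF1 peak lay 205.8 kb from the 5′ edge of the interval, while SRSF2 had its first at 60.7 kb and 6 peaks in the first of 3 equal parts. The middle part of Dst held 28 SRSF1 and 60 SRSF2 peaks and the last part, from 267 kb on, 106 and 148. Macf1 had 0 peaks of either protein in the first part, 13 SRSF1 and 23 SRSF2 peaks in the middle and 58 and 78 in the last, from 224 kb on. Plec had 0 peaks of either protein before 38.3 kb, 8 and 7 peaks in the middle part and 20 and 36 in the last, from 41.7 kb on. Peak numbers run along the coordinate, and the first listed Dst peak of each list carries number 1, so no numbered peak of the unit is missing before it. The last part held 79.1% of SRSF1 and 69.2% of SRSF2 peaks in Dst, 81.7% and 77.2% in Macf1 and 71.4% and 83.7% in Plec. When the 3 parts were cut from the peaks' own span, the last part of Plec held 17.9% of its SRSF1 and 39.5% of its SRSF2 peaks. The transcript Plec-205 spans 35.3 kb of GRCm38, where the interval spans 62.5 kb, so the bare stretch of Plec may lie partly before the start of that transcript.

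**Figure D1:**
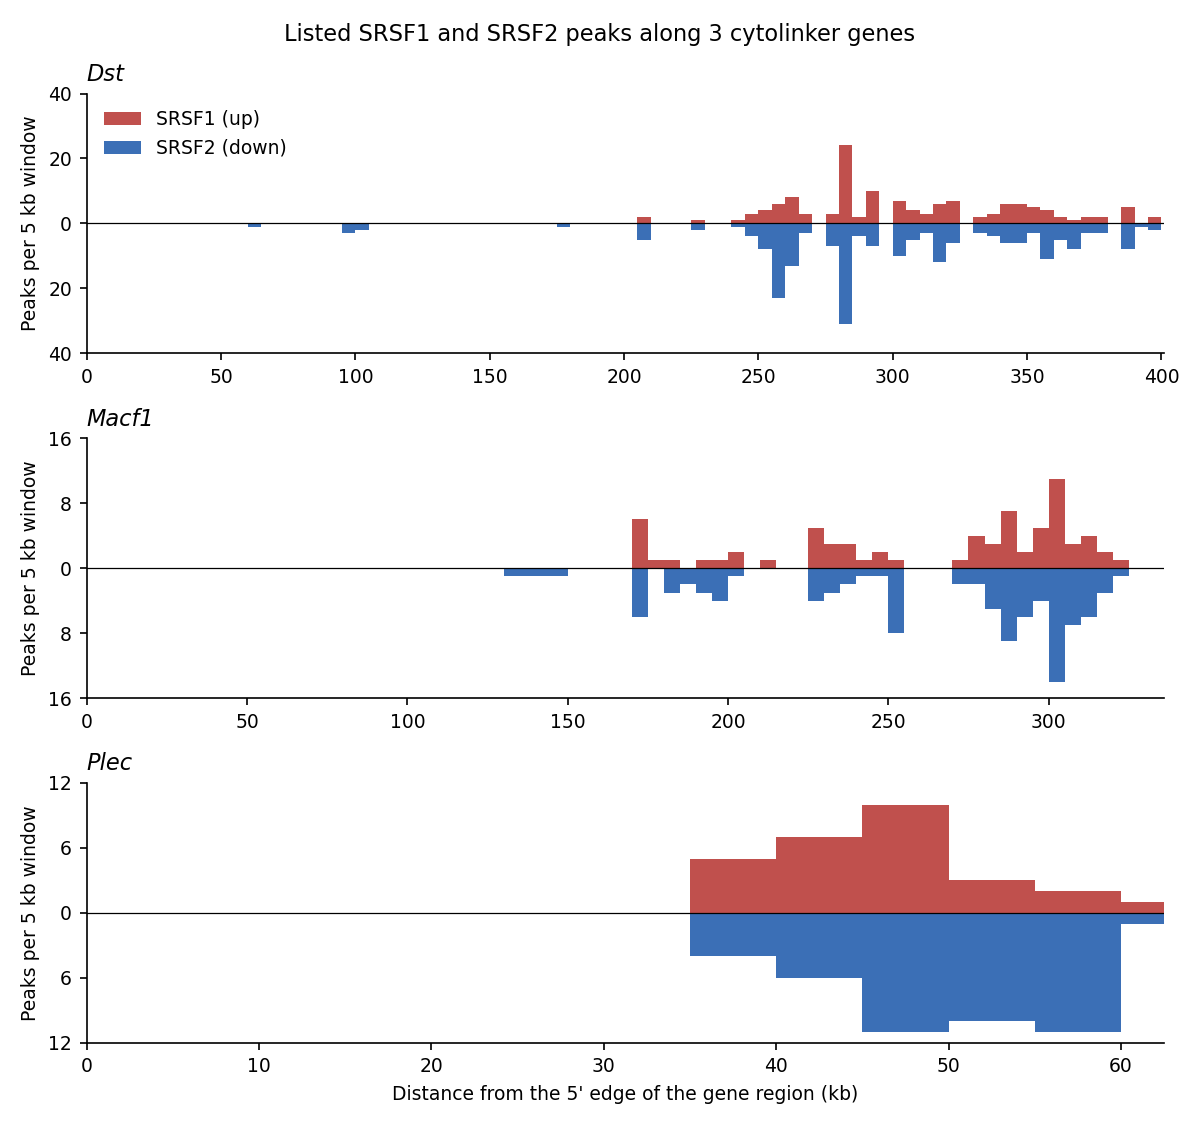
Number of listed peaks in windows of 5 kb against distance from the 5′ edge of each gene interval in kb, with SRSF1 bars upward and SRSF2 bars downward (1 library each; vertical scales differ between genes). The Dst windows at 255 to 260 kb and 280 to 285 kb stand out, with 6 SRSF1 and 23 SRSF2 peaks and 24 and 31 peaks, and the first 35 kb of Plec hold none.

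The densest 5 kb window of Dst, 280 to 285 kb from the 5′ edge, held 24 SRSF1 and 31 SRSF2 peaks. That is 15.8% of the gene's peaks in 1.25% of its length, or 12.7 times the gene's mean density. These peaks were scattered over chr1:34245023-34249940, a stretch of 4918 nt, and covered 9.18% of the window for SRSF1 and 12.5% for SRSF2. With windows shifted by 50% the densest one held 11.2% of SRSF1 peaks, where the unshifted window held 17.9%, and 8.88% of SRSF2 peaks, where the unshifted one held 14.5%. All genic units together lack 17.6% of SRSF1 and 19.9% of SRSF2 peak numbers. In this window the 24 SRSF1 peaks span 38 numbers and the 31 SRSF2 peaks span 40, so missing numbers were frequent for SRSF1 mainly. Of these peaks, 14 SRSF1 and 12 SRSF2 peaks were overlapped by the other protein.

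The next window of Dst, at 255 to 260 kb, was uneven between the proteins. It held 6 SRSF1 and 23 SRSF2 peaks between 34221009 and 34224836, which puts SRSF1 at 20.7% (95% interval 7.99 to 39.7), which includes the 38.5% of the gene. All 6 SRSF1 peaks were overlapped by SRSF2, and 17 of the 23 SRSF2 peaks had no SRSF1 peak on them. The window that follows, at 260 to 265 kb, held 8 and 13 peaks. The window at 290 to 295 kb went the other way with 10 SRSF1 and 7 SRSF2 peaks. Of the 34 Dst windows with any peak, SRSF2 had more peaks in 25, SRSF1 in 3, and 6 were equal.

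Macf1 had its densest window at 300 to 305 kb, with 11 SRSF1 and 14 SRSF2 peaks between 123057678 and 123062006, of which 9 and 10 were overlapped by the other protein. The window at 285 to 290 kb followed with 7 and 9 peaks. Next came 170 to 175 kb, which held 6 peaks of each protein between 123187028 and 123191226, and 0 of the 12 overlapped. It lies near the 5′ end of the bound portion of Macf1, after 20 kb without a peak. SRSF2 had more peaks in 17 of the 29 Macf1 windows with any peak, SRSF1 in 8, and 4 were equal.

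From 35 to 50 kb Plec had 22 SRSF1 and 21 SRSF2 peaks, so that SRSF1 made up 51.2% (35.5 to 66.7), and from 50 kb to the 3′ edge 6 and 22 peaks, with SRSF1 at 21.4% (8.30 to 41.0). The boundary was chosen after these values were seen, and the intervals overlap. The densest window, at 45 to 50 kb (76013529 to 76018107), held 10 SRSF1 and 11 SRSF2 peaks, and the windows at 40 to 45 kb and 50 to 55 kb held 7 and 6, and 3 and 10. Of the 11 peaks of SRSF2 at 55 to 60 kb, 2 were overlapped, and SRSF1 had 2 peaks there. In all 6 Plec windows with any peak both proteins were present, as in 29 of 34 in Dst and 22 of 29 in Macf1. Across windows with any peak the numbers of both proteins had a Spearman rho of 0.793 in Dst (34 windows), 0.656 in Macf1 (29) and 0.377 in Plec (6). Windows of a gene share its RNA, so this is a description.

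SRSF1 made up less of the peaks in each gene than of the whole lists, where peaks of all scores are counted. The SRSF1 share was 38.5% in Dst (95% binomial interval 33.4 to 43.8), 41.3% in Macf1 (33.8 to 49.0) and 39.4% in Plec (28.0 to 51.7), and 39.4% over the 3 genes together (35.5 to 43.5), against 47.6% in the rest of the lists (47.3 to 47.9). The rest of chromosomes 1, 4 and 15 had 47.2%, 51.4% and 47.5%. Only the interval of Dst lay below the overall share of 47.5%. Of 2948 genic units with at least 10 peaks, 2.92% had an interval below it, and nothing is read from this, as the genes were picked with these shares known. Intervals cover counting error only, and peaks are not independent molecules. Among the 293 units with at least 50 peaks the share ran from 26.9% to 87.1% with a median of 47.6%, and 24 units had a lower share than Dst. The whole lists cover all scores, while no peak of the 3 genes scored under 10. At score 10 or more the lists hold 16360 SRSF1 and 22249 SRSF2 peaks. At or above the lowest scores of Dst, the rest of the lists held 12652 SRSF1 and 22035 SRSF2 peaks. These counts were 12715 and 22148 for Macf1, and 6412 and 6113 for Plec. The lowest scores differ between the proteins, at 11 for SRSF1 and 10 for SRSF2 in Dst and Macf1, and 14 and 16 in Plec. Beside the counts at these unequal floors the SRSF1 share was lower in Plec only, and not in Dst or Macf1. Beside the lists at score 10 or more it was lower in all 3 genes. The comparison depends on the floors, and nothing is read from it.

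The numbers missing from the lists differed between the proteins, and their part in these shares was not tested. The SRSF1 list leaves out 60 of the 194 peaks numbered in Dst (30.9%) and the SRSF2 list 47 of 261 (18.0%), where all genic units together lack 17.6% and 19.9%. In Macf1 33 of 104 SRSF1 numbers (31.7%) and 31 of 132 SRSF2 numbers (23.5%) are missing, and in Plec 5 of 33 (15.2%) and 11 of 54 (20.4%). Counted by numbers, the SRSF1 share was 42.6% in Dst (38.0 to 47.3), 44.1% in Macf1 (37.6 to 50.7) and 37.9% in Plec (27.7 to 49.0), against 47.1% over all genic units. The lowest listed score in Dst and Macf1 was 11 for SRSF1 and 10 for SRSF2. With only scores of 11 or more, the share was 40.7% in Dst and 47.0% in Macf1. The overall share covers all scores and is not matched to this floor. In Plec a common floor of 16 gave 36.8%, and the whole unit, with the peaks beyond the 5′ edge, 43.9%. The sources used here do not state how numbered peaks came to be left out.

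**Figure D2:**
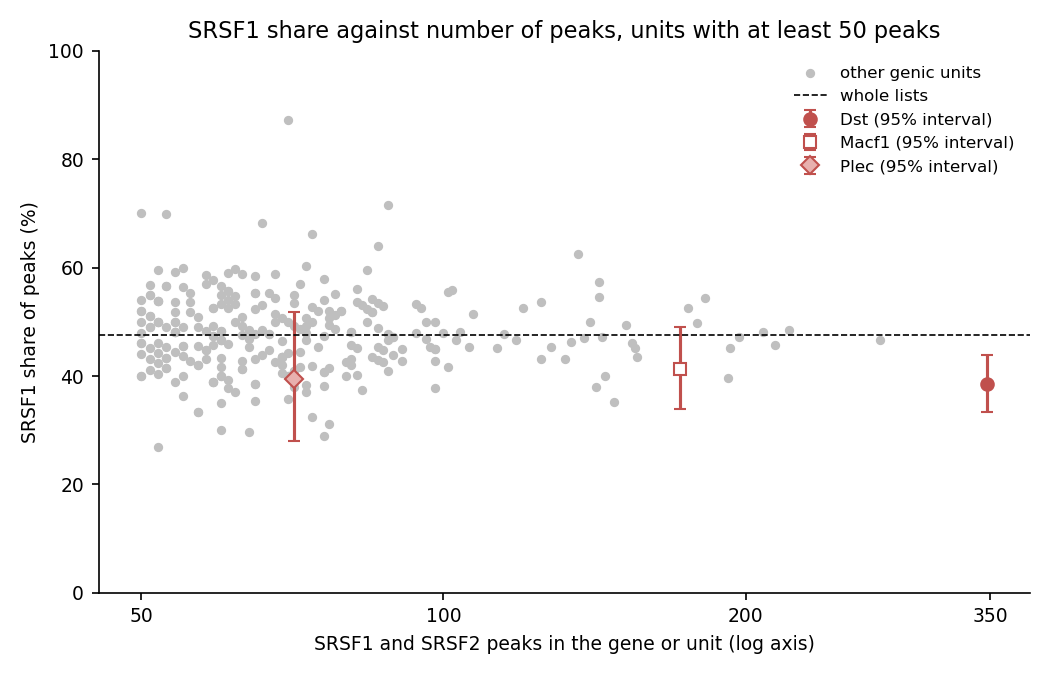
SRSF1 share of peaks in percent against the number of peaks of both proteins on a log axis, for the intervals of Dst, Macf1 and Plec (red, with 95% binomial intervals) and for the other whole genic units with at least 50 peaks (grey). The whole Plec unit, not drawn, has 82 peaks and a share of 43.9%. Dst stands at the far right with 348 peaks, and all 3 genes lie below the dashed line at 47.5%, the share over peaks of all scores.

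Dst and Plec had most of their SRSF1 peaks overlapped by SRSF2, whereas Macf1 did not. On the same strand with at least 1 nt shared, 90 of 134 SRSF1 peaks were overlapped in Dst (67.2%, 58.5 to 75.0), 31 of 71 in Macf1 (43.7%, 31.9 to 56.0) and 19 of 28 in Plec (67.9%, 47.6 to 84.1). In the whole SRSF1 list the share was 38.7%. The shares of SRSF2 peaks were lower in each gene, 93 of 214 in Dst (43.5%, 36.7 to 50.4), 34 of 101 in Macf1 (33.7%, 24.6 to 43.8) and 18 of 43 in Plec (41.9%, 27.0 to 57.9), against 35.2% in the whole SRSF2 list.

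Peaks of high score overlapped more often across these lists, at 59.3% for SRSF1 and 51.7% for SRSF2 among peaks of score 10 or more, and no peak of the 3 genes scored under 10. A closer comparison therefore took the rest of each list at or above the gene's lowest score, a choice made after the data were seen. The SRSF1 peaks of Dst (67.2%) then stood near the rest, at 62.5% (61.7 to 63.4), and those of Plec (67.9%) near 71.3% (70.2 to 72.4). Macf1 (43.7%) lay below its comparison, at 62.7% (61.8 to 63.5), with intervals that do not meet. For SRSF2, all 3 genes lay below their comparisons, Dst (43.5%) below 51.7% (51.1 to 52.4), Macf1 (33.7%) below 51.7% (51.1 to 52.4) and Plec (41.9%) below 70.1% (69.0 to 71.3). The genes were chosen with their SRSF1 shares known, and fewer SRSF1 peaks leave fewer partners for SRSF2 peaks. The SRSF2 values are therefore not separate from those shares and are a description. The score of the partner was not matched. Peaks of the rest could be met by a partner of any score, while partners in a gene start at that gene's own lowest score. This lowers the overlap of the genes beside the rest, by an amount that was not tested. Peak width, which makes an overlap easier, was not matched either. Where each list has a median of 19 nt, SRSF1 peaks had 23 nt in Dst, 21 nt in Macf1 and 20 nt in Plec. The SRSF2 peaks had 20.5, 16 and 18 nt. The part of width in the overlap was not tested. Against 290 other units with at least 50 peaks, the SRSF1 overlap of Dst was above 246, that of Macf1 above 67 and that of the whole Plec unit (21 of 36 peaks, 58.3%) above 182. The SRSF2 overlap was above 101, 44 and, for the whole Plec unit (20 of 46 peaks, 43.5%), 101 of them. With only the upper 50% of each gene's peaks by score, which also removes partners, the SRSF1 overlap of Plec was 35.7% and its SRSF2 overlap 23.8%.

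**Figure D3:**
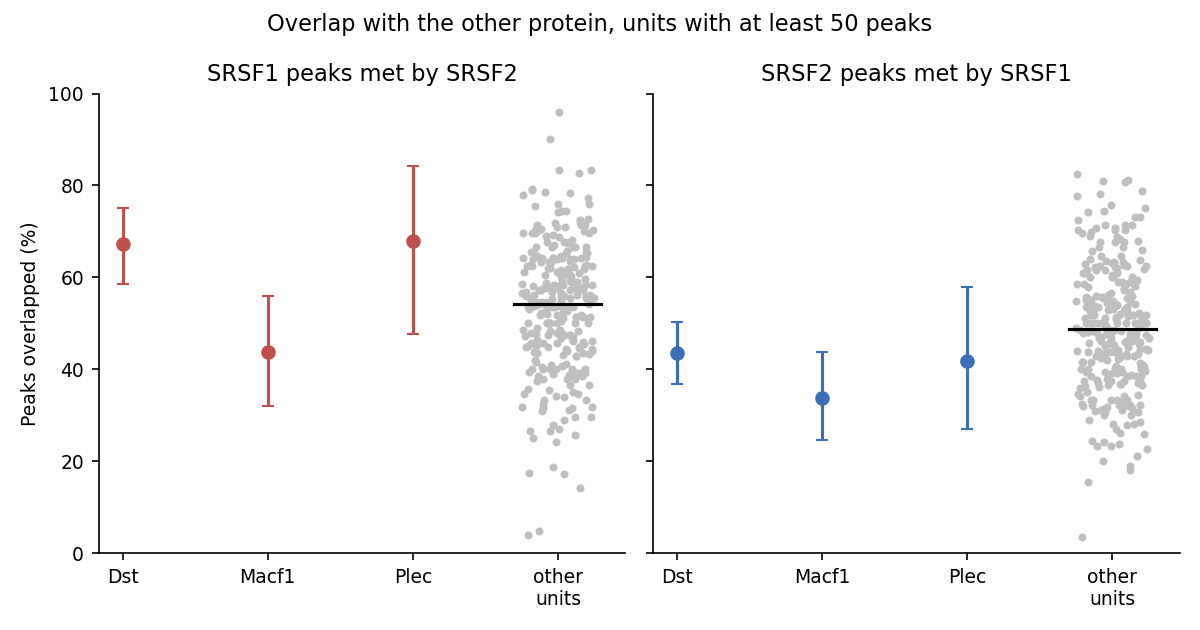
Share of SRSF1 peaks (left) and SRSF2 peaks (right) in percent that share at least 1 nt with a peak of the other protein, with 95% binomial intervals, for the intervals of Dst, Macf1 and Plec (the whole Plec unit has 58.3% for SRSF1 and 43.5% for SRSF2) and for the other whole units with at least 50 peaks (grey points, black line at their median). For SRSF1, Dst at 67.2% and Plec at 67.9% lie above the median of 54.2% and Macf1 at 43.7% below it; for SRSF2 all 3 genes lie below the median of 48.8%.

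Overlapping peaks had close midpoints, and peaks this narrow that share a nucleotide can lie only a little apart. Midpoints lay within 10 nt of each other in 81 of 97 overlapping pairs in Dst, 29 of 35 in Macf1 and all 19 in Plec, where 83.9% of all 20654 overlapping pairs of the lists did. In the 3 genes 0 pairs had identical ends. The pair with the highest smaller score in Dst joined the top peak of each list there, SRSF1 chr1:34274665-34274708 (score 29) and SRSF2 chr1:34274668-34274704 (score 32), 309.7 kb from the 5′ edge. The next Dst pairs lay at 304.9 kb (scores 27 for SRSF1 and 25 for SRSF2) and 259.8 kb (27 and 23). In Macf1 the top pairs had scores of 19 for SRSF1 and 20, 19 and 20 for SRSF2, at 299.9, 290.6 and 283.0 kb, and one of them, SRSF1 chr4:123071386-123071412 with SRSF2 chr4:123071385-123071413, shared its midpoint. In Plec the top pair was SRSF1 chr15:76013817-76013851 (score 25) with SRSF2 chr15:76013823-76013856 (score 26), at 49.7 kb, followed by pairs at 41.6 kb (20 and 27) and 38.7 kb (20 and 22).

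Peaks in the 3 genes scored high within their lists, and Plec highest. The median SRSF1 score was 15 in Dst (range 11 to 29), 14 in Macf1 (11 to 28) and 17 in Plec (14 to 25), values above 89.8%, 87.4% and 93.1% of the SRSF1 list. The median SRSF2 score was 13 in Dst (10 to 32), 12 in Macf1 (10 to 26) and 20 in Plec (16 to 40), above 79.7%, 74.8% and 94.6% of the SRSF2 list. The lowest scores differ between units, so a high median may belong to the unit's own lower bound as much as to its sites. Dst held SRSF1 peaks of score 28 at 307.4 kb and 27 at 259.8 kb after its top peak, and SRSF2 peaks of 31 at 304.4 kb and 30 at 266.0 kb. Macf1 had 2 SRSF1 peaks of score 28, at 283.0 and 290.6 kb, both overlapped by SRSF2, and one of 25 at 302.6 kb. Its top SRSF2 peak, chr4:123167887-123167913 (score 26, 194.1 kb), had no SRSF1 peak on it, and the next, of 23 at 307.7 kb, did. The top SRSF2 peak of Plec, chr15:76025202-76025245 (score 40), was also the one nearest to the 5′ edge and had no SRSF1 peak on it, the closest midpoint lying 382.5 nt away. Peak widths were close to the lists' median of 19 nt, with medians of 23 nt (SRSF1) and 20.5 nt (SRSF2) in Dst, 21 and 16 nt in Macf1 and 20 and 18 nt in Plec.

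**Figure D4:**
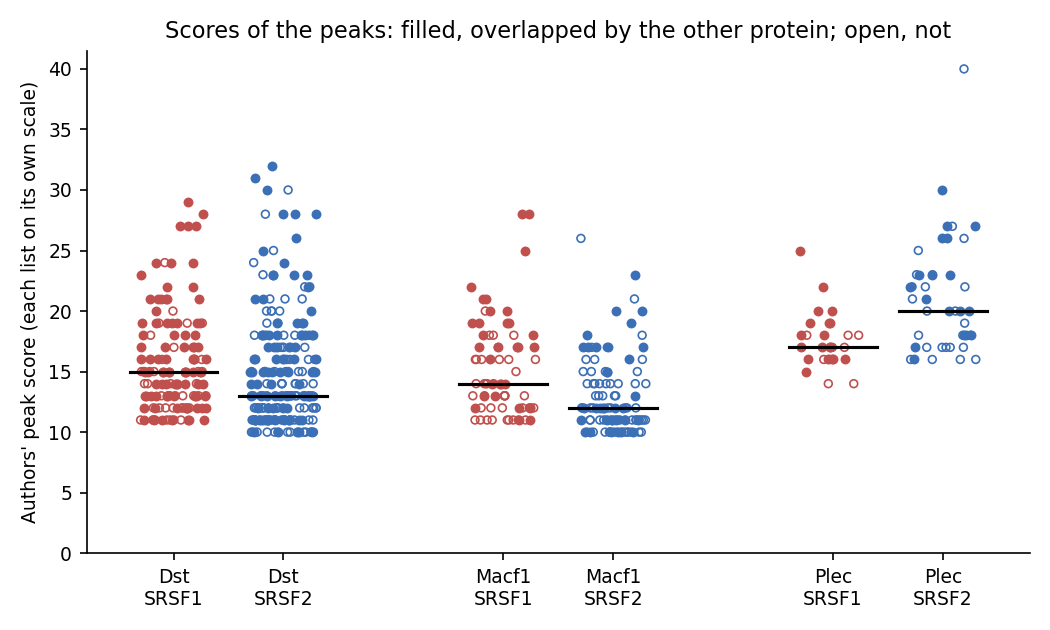
The authors' score of each listed peak in Dst, Macf1 and Plec, by gene and protein, with a black line at the median; filled points are peaks overlapped by the other protein and open points are not. Each list has its own scale, so heights are compared within a protein: Plec has the highest median in both lists, 17 for SRSF1 and 20 for SRSF2.

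Few other cytoskeletal linkers could be set beside these genes by symbol, since most peaks lie in units without a gene name. Genes of the list that lie in such units, which may be units with many peaks, are not counted here. Of a list of 50 genes of linkers, motors and filaments, 8 had a RefSeq-named unit with a peak, all 8 with both proteins, and 6 had at least 10 peaks. Their median SRSF1 share was 47.8%, where 528 named genes with at least 10 peaks had 46.7%. Dync1h1, the heavy chain of cytoplasmic dynein, had 76 SRSF1 and 116 SRSF2 peaks (39.6%, 32.6 to 46.9), the only one of the 6 whose interval lay below the overall share. Filamin A (Flna), an actin crosslinker, had 45 and 51 peaks, and Actn4, an actin-bundling actinin, 18 and 19. The microtubule end-binding genes Mapre1 and Mapre3 had 7 and 13 peaks of each protein, and Actb, cytoplasmic actin, 9 and 12. The other plakins of the list, Dsp, Evpl, Ppl and Eppk1, had no named unit with a peak, which does not show that they were unbound.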

How the data were processed

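The authors deposited 1 BED list of CLIP-seq peaks per protein. Its peak score is a whole number, and the deposited files do not say what it measures. The build is mm9, per the submitters' processing notes, and positions are printed 1-based. The sources used here do not give the aligner, peak caller or threshold. Peaks were assigned by position and strand with Python 3.11.15, pandas 2.3.3 and scipy 1.17.1. Overlap meant at least 1 nt on the same strand, and bedtools 2.31.1 gave the same count (19724). Windows of 5 kb were tiled from the 5′ edge. Intervals are exact (Clopper-Pearson, 95%). Steps were tested on simulated data. Symbols came from RefSeq (GRCm38.p6), used for names, neighbours and lengths, and transcripts from GENCODE M21 on GRCm38, so no coordinate was carried between builds. With 1 library per protein no test was made. The members and lists were chosen with earlier results of these data known. Named in the text are, per gene, the 3 densest windows, the 3 highest-scoring peaks of each protein, the 3 top overlapping pairs and the top peak of each protein without the other within 500 nt, list genes with at least 10 peaks, and the 5 units with most peaks. The Dst window at 290 to 295 kb, the Plec window at 55 to 60 kb and the list genes without a named unit were named after their values were seen. Alternatives changed the score range, merging, overlap rule, windows and region bounds.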

Additional observations from a re-analysis of the deposited data

How the results depend on the processing

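No paired analysis was possible because each protein has 1 library. Of 108 alternative values for 27 results, 81 stayed within the 95% interval of the reported value and 27 did not. Of the 81, 32 equal the reported value. Among them all 27 for the upper 50% of each list and 2 for the whole unit of Dst and Macf1 kept the same peaks and so test nothing. Another 2 are the Plec overlaps with 50% of the shorter peak shared, where the rule did change. The last 1 is the Dst share with the upper 50% by score within the gene. The SRSF1 share of each gene stayed within its interval under all 6 alternatives run. One of them, the upper 50% by score within the gene, keeps 50% of each protein's peaks. It can change the share only by rounding and so does not test it. Staying within these wide intervals is a loose check. The Macf1 share went from 41.3% to 47.0% at a common floor of 11, and that of Plec from 39.4% to 43.9% with the whole unit. The upper 50% of each list by score removed no peak of these genes. Counting midpoints within 50 nt as overlap gave 82.8% (SRSF1) and 63.1% (SRSF2) in Dst and 59.2% and 44.6% in Macf1. The upper 50% by score within the gene, chosen after seeing the data, gave an overlap of 49.3% (SRSF1) and 30.8% (SRSF2) in Dst, 45.7% and 30.0% in Macf1 and 35.7% and 23.8% in Plec. It also leaves fewer partners, and the cause was not tested further. Density over the span from first to last peak was 0.631 per kb for SRSF2 in Dst, 0.367 (SRSF1) and 0.522 (SRSF2) in Macf1 and 1.26 and 1.94 in Plec, and merging peaks gave 0.439 for SRSF2 in Dst. The densest window held 7.46% and 7.01% of Dst peaks, 4.95% of SRSF2 peaks in Macf1 and 14.3% of SRSF1 peaks in Plec at 2 kb, 60.7% of SRSF1 peaks in Plec at 10 kb, and 11.2% and 8.88% in Dst when shifted by 50%. With parts cut from the peaks' own span, the last part held 58.2% and 50.5% in Dst, 60.6% and 58.4% in Macf1 and 17.9% and 39.5% in Plec. Window size and span move these by construction. Plec has 71 peaks, and its intervals are the widest of the 3 genes.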

Other observations

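Without a midpoint of the other protein within 500 nt were 19 of 233 SRSF1 peaks (8.15%) and 71 of 358 SRSF2 peaks (19.8%) of the 3 genes, against 35.6% and 37.5% of the whole lists, whose scores are lower. The genes were chosen with their peak numbers known, and the lists hold many units with fewer peaks. The difference is therefore a description only. The peaks without such a midpoint were 1 SRSF1 and 27 SRSF2 peaks in Dst (0.746% and 12.6%), 15 and 34 in Macf1 (21.1% and 33.7%), and 3 and 10 in Plec (10.7% and 23.3%). The single such SRSF1 peak of Dst, chr1:34280669-34280685, had a score of 14 and lay 1795 nt from the nearest SRSF2 midpoint. The highest-scoring such SRSF2 peak of Dst, chr1:34331143-34331172 (366.2 kb from the 5′ edge), had a score of 30 and its nearest SRSF1 midpoint at 1416 nt. In Macf1 the top ones were chr4:123132251-123132285 for SRSF1, with a score of 18 that 1 other such peak shares, and chr4:123167887-123167913 for SRSF2, with a score of 26. In Plec they were chr15:76019766-76019785 for SRSF1 (score 18, also shared by 1 other) and chr15:76007148-76007170 for SRSF2 (score 25). The lists leave out numbered peaks, so a partner may exist that was not listed.

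Within overlapping pairs the scores of both proteins had a Spearman rho of -0.04 in Dst (97 pairs), 0.13 in Macf1 (35) and -0.24 in Plec (19), as descriptions. Pairs of a gene share its RNA and its lower score bound.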
